A study of Mus musculus with 24 samples.

Results

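The genes described here are 5 genes of brown fat thermogenic metabolism, Dio2, Elovl3, Acot11, Letmd1 and Pank1, chosen by symbol out of the 37041 genes of each RNA sequencing table, in which entries of the same symbol at overlapping loci had been merged. The tables cover 24 libraries in 8 groups of 3. The line C2C12, mouse myoblasts that can fuse into muscle fibres, was sequenced as NFIA-expressing cells and as control cells, each on day 0 and on day 7, and on day 7 also following forskolin (10 µM, 4 h). NFIA belongs to the nuclear factor I transcription factors, and forskolin switches on adenylyl cyclase and so raises cAMP, the second messenger through which cold acts on brown fat. The remaining groups are brown adipose tissue of mouse neonates, labelled NFIA-KO and wild type. The sources used here do not give the strain, the exact age, the kind of deletion, the number of animals per library or the way NFIA was introduced into C2C12 cells. No label says whether C2C12 libraries of a group come from separate cultures, so p-values measure the spread between these libraries, which may be technical.

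Brown fat burns fuel in mitochondria to make heat, and its activity is raised by noradrenaline through cAMP and by thyroid hormone. Dio2 encodes type 2 deiodinase, which converts the prohormone thyroxine into active triiodothyronine inside the cell and is induced by cAMP in brown adipocytes. Elovl3 encodes a cold-induced elongase of very-long-chain fatty acids, and Acot11 (also called Them1) a cold-induced thioesterase that hydrolyses fatty acyl-CoA in brown fat. Letmd1 encodes a mitochondrial protein with a LETM1 domain that mice need for brown fat mitochondrial structure and heat production. Pank1 encodes a pantothenate kinase, the enzyme of the first committed step of coenzyme A synthesis. In the tables, Dio2 (ENSMUSG00000007682.5) is listed on mm9 chromosome 12 from 91962994 to 91989133, Elovl3 (ENSMUSG00000038754.3) on chromosome 19 from 46206387 to 46222865, and Acot11 (ENSMUSG00000034853.9) on chromosome 4 from 106406494 to 106477603. Letmd1 (ENSMUSG00000037353.8) is listed on chromosome 15 from 100299465 to 100309683 and Pank1 (ENSMUSG00000033610.8) on chromosome 19 from 34885384 to 34953945.

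The Dio2 and Pank1 promoters are shown because these genes moved in opposite directions when forskolin was added to NFIA-expressing cells. Of the 5 genes, 4 matched the RefSeq promoter table (GRCm38.p6), and Elovl3 did not. The 250 bases before the Dio2 start lie at chr12:90739039-90739288 on the minus strand, and those before the first Pank1 start in the table at chr19:34879456-34879705, also on the minus strand. Capitals mark the full cAMP response element TGACGTCA in Dio2 and, on the opposite strand, TTGGCA in Pank1. TTGGCA is not a full NFI site: it holds a single arm of the NFI palindrome, TTGGC, followed by A.
Dio2: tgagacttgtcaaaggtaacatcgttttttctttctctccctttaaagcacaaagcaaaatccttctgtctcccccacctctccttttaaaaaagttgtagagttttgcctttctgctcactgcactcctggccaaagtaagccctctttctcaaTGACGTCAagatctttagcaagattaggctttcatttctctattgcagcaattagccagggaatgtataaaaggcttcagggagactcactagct
Pank1: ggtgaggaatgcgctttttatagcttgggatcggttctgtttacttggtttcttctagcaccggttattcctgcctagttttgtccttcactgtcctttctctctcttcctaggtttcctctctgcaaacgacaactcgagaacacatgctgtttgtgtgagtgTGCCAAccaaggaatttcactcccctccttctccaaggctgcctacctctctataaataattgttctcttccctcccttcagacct
The full element TGACGTCA stands 95 to 88 bases before the Dio2 start and was found, on both strands, in 1.55% of the 32851 promoter windows of this length in the table. The shorter site TGACG, which the full element contains on each strand, occurred in 17.8% of all windows and, among the entries of these 4 genes, in the Dio2 window alone. The NFI arm with the added A, TTGGCA, occurred in 12.3% of all windows. Among these genes it occurred in both Pank1 windows and in 1 of the Acot11 windows. The arm TTGGC without the A was not counted over all windows. It is present on the opposite strand, as GCCAA, in the Dio2 window shown. The Dio2 and Pank1 windows shown therefore both hold an NFI arm. The NFI palindrome, TTGGC and GCCAA separated by 5 bases of any kind, was found in 0.0365% of all windows and in none of the 6 windows of these genes. A match says only that the letters are present.

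FPKM (fragments corrected for transcript length and library size) summed to 762822 to 1575522 per library, and 17304 to 21410 genes were above 0. Read totals are not given, so the depth is unknown; in 700 olfactory receptor entries with loci of 900 to 1000 bases, the smallest FPKM above 0 lay between 0.01 and 0.08 in the 23 libraries that had a value. Nfia read 1252 to 10448 FPKM in NFIA-expressing C2C12 libraries and 0.26 to 2.23 in control libraries. In brown fat, Nfia read 44.6, 40.1 and 39.4 FPKM in the libraries labelled NFIA-KO, against 24.3, 32.8 and 32.6 in wild type, so it was not lower in any library labelled NFIA-KO (0.47 ± 0.15; limma adjusted p = 0.097). A value over the whole gene cannot show the loss of a part of it, and directions in tissue below rest on these labels. Brown fat markers were present in all 6 tissue libraries, with Ucp1, the uncoupling protein that defines brown fat, at 1594, 1674 and 1445 FPKM in libraries labelled NFIA-KO and 7240, 4753 and 4073 in wild type. Each difference below is a log2 fold change on the FPKM + 1 scale with its SE, which understates changes of genes with low FPKM, and a gene was called at a Benjamini-Hochberg adjusted p under 0.05 in limma.

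All 5 genes passed the filter of at least 1 FPKM in at least 3 libraries, in cells and in tissue. Elovl3 passed it in cells only through the 6 day 7 NFIA libraries, with and without forskolin, and Acot11 only through the 6 day 7 control libraries. Dio2 passed it in cells only through the 12 day 7 libraries. The presence of these genes among tested genes already depends on these groups. Calls of Elovl3 and Acot11 between day 7 NFIA and control cells are therefore no support for the counts below. The same holds for rises of Elovl3, Acot11 and Dio2 from day 0 to day 7, and for their terms in the interaction test between the days. Letmd1 and Pank1 were highest in tissue. Letmd1 averaged 259.8 ± 32.9 FPKM in wild-type brown fat (SD, n = 3), and its lowest wild-type library stood 14.2-fold above the highest C2C12 library. Pank1 averaged 83.0 ± 23.6 FPKM there, and its lowest wild-type library stood 5.26-fold above the highest C2C12 library. Elovl3 averaged 32.4 ± 12.3 FPKM in wild-type tissue, with its lowest wild-type library 3.50-fold above the highest C2C12 library. Dio2 and Acot11 did not separate tissue from cells. Dio2 read 21.7, 36.7 and 4.60 FPKM in wild-type tissue, a range that holds every day 7 control library and every forskolin-treated C2C12 library. Acot11 read 6.64, 2.41 and 1.62 FPKM in wild-type tissue, a range that overlaps day 7 control cells at 2.35, 3.60 and 2.56.

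**Figure D1:**
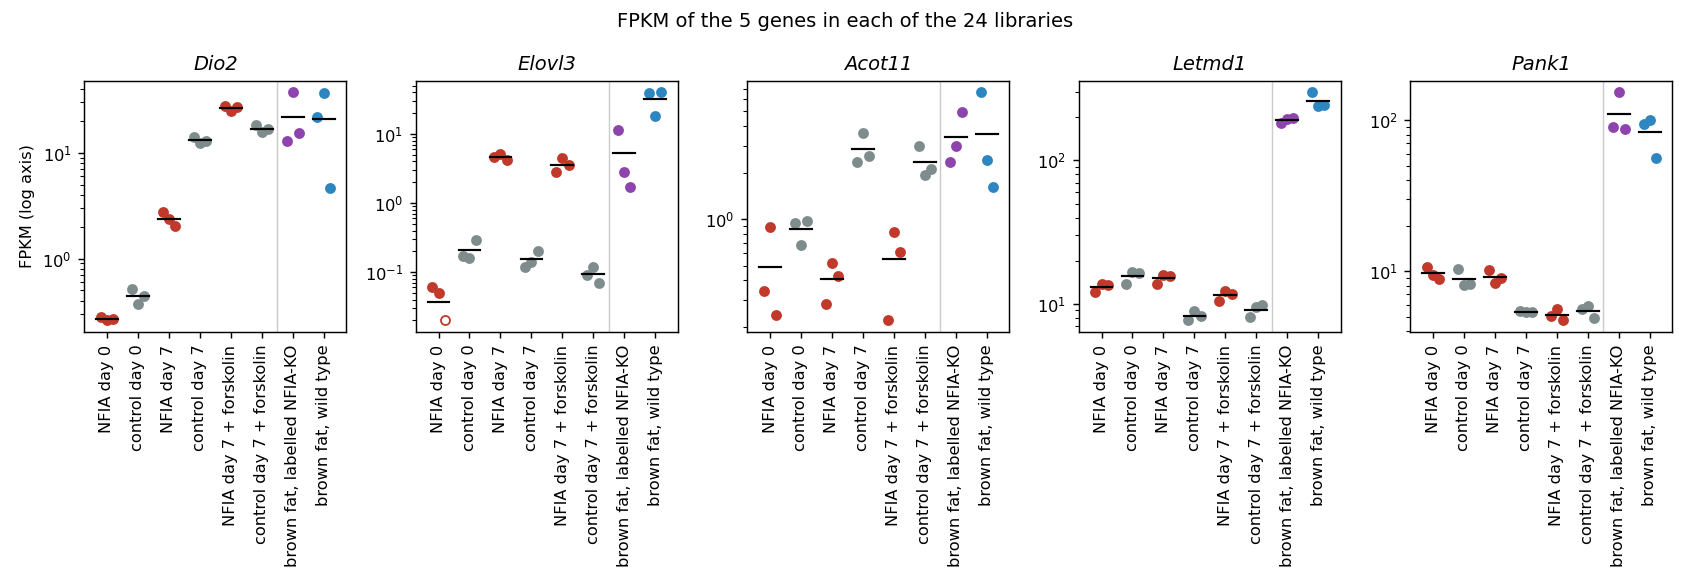
FPKM on a log axis of the 5 genes in each library (points) with group means (lines); the open circle is a library listed at 0, drawn at the foot of the axis. Letmd1 and Pank1 are highest in tissue, Elovl3 stands at 2.80 to 5.20 FPKM in the 6 day 7 NFIA libraries and at most 0.29 in the other C2C12 libraries, and Dio2 spans 0.26 to 37.12 FPKM.

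In the order of group means, Dio2 ran from day 7 NFIA cells with forskolin through both tissue groups and day 7 control cells with forskolin, neighbours whose library values overlap, to day 7 control cells, day 7 NFIA cells, day 0 control cells and day 0 NFIA cells, which did not overlap with one another. Elovl3 was highest in wild-type tissue, which did not overlap with the next group, the libraries labelled NFIA-KO. Those overlapped with day 7 NFIA cells, and these with day 7 NFIA cells under forskolin; all control cells and day 0 NFIA cells were lower. For Letmd1, wild-type tissue, tissue labelled NFIA-KO and the cells were apart, and among cells the mean was highest in day 0 control and lowest in day 7 control. For Pank1, both tissue groups overlapped, and the cells formed a higher set (both day 0 groups and day 7 NFIA, which overlapped) and a lower set (day 7 control and both forskolin groups, which overlapped). For Acot11, both tissue groups and both day 7 control groups overlapped from neighbour to neighbour, and stood above day 0 control cells and the 3 NFIA groups, which overlapped with one another in the same way.

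At day 0, when the cells were still myoblasts, none of the 5 genes was called between NFIA-expressing and control cells, where limma called 21.2% of 14351 genes. At an unadjusted p under 0.05 there were 2 of 5, Dio2 and Letmd1, and 30.6% of all genes. Dio2 read 0.28, 0.26 and 0.27 FPKM in NFIA cells, against 0.52, 0.37 and 0.44 in control cells (-0.18 ± 0.09; limma adjusted p = 0.16). The groups did not overlap. Letmd1 read 12.07, 13.73 and 13.58 FPKM in NFIA cells, against 13.84, 16.78 and 16.47 in control cells, also without overlap (-0.24 ± 0.10; limma adjusted p = 0.10). The 2 numbered libraries of each group, which carry a later date in their column header, gave -0.27 for Letmd1 (limma adjusted p = 0.0066), and without control replicate 1 the value was -0.32 (limma adjusted p = 0.032). With the header date as a term, a setting chosen after seeing the data, limma called both Dio2 (-0.18; limma adjusted p = 0.026) and Letmd1 (-0.24; limma adjusted p = 3.2e-04) at day 0, and 5303 genes in all, against 3036 without the term. Elovl3 read 0.06, 0.05 and 0.00 FPKM in NFIA cells, against 0.17, 0.16 and 0.29 in control cells, so it was near the foot of the scale in both. Its difference passed with a pseudocount of 0.1 (-1.17; limma adjusted p = 0.0023), as did that of Dio2 (-0.55; limma adjusted p = 0.0036). Pank1 read 10.65, 9.36 and 8.91 FPKM in NFIA cells, against 10.31, 8.04 and 8.17 in control cells, and Acot11 0.34, 0.89 and 0.24, against 0.94, 0.68 and 0.97; in both genes the groups overlapped. The skeletal muscle markers summed to 6.93 to 8.81 FPKM in NFIA cells, against 31.9 to 37.3 in the controls, and their part in these values was not tested.

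At day 7 all 5 genes were called, 3 higher and 2 lower in NFIA cells, where limma called 55.5% of all genes, 26.1% higher and 29.4% lower. Elovl3 read 4.63, 5.20 and 4.14 FPKM in NFIA cells, against 0.12, 0.14 and 0.20 in control cells. Every NFIA library was at least 4.14 FPKM and no control library passed 0.20 (2.29 ± 0.11; limma adjusted p = 9.5e-11). Letmd1 was higher, at 13.79, 15.86 and 15.67 FPKM in NFIA cells, against 7.67, 8.86 and 8.25 in control cells (0.80 ± 0.10; limma adjusted p = 4.0e-06). Pank1 was higher, at 10.22, 8.37 and 8.93 FPKM in NFIA cells, against 5.47, 5.36 and 5.33 in control cells (0.67 ± 0.10; limma adjusted p = 5.1e-05). For Letmd1 and Pank1 the NFIA mean was 1.83 and 1.70 times the control mean, without overlap between libraries. The deiodinase gene went the other way: Dio2 was lower, at 2.78, 2.34 and 2.04 FPKM in NFIA cells, against 13.99, 12.36 and 12.86 in control cells (-2.06 ± 0.09; limma adjusted p = 1.9e-11). Acot11 was lower, at 0.28, 0.52 and 0.43 FPKM in NFIA cells, against 2.35, 3.60 and 2.56 in control cells (-1.43 ± 0.18; limma adjusted p = 8.1e-06). Neither gene overlapped between groups. Markers of muscle fibres and of adipocytes moved with these differences: the 9 skeletal muscle markers summed to 2954 to 4058 FPKM in NFIA cells and 26728 to 27599 in the controls, and the 6 adipocyte markers to 22295 to 24466 in NFIA cells and 5.56 to 10.7 in control cells. The larger of these sums are mostly 1 gene each: Mylpf averaged 21707 FPKM in control cells and Fabp4 22388 in NFIA cells. The part of these markers in the values of the 5 genes was not tested. In bulk RNA, fewer cells of a type and less RNA per cell cannot be told apart.

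The NFIA effect differed between the days for all 5 genes in the interaction test, which called 45.3% of all genes, 19.8% in the positive and 25.5% in the negative direction. Elovl3 passed the filter only through day 7 NFIA libraries, Acot11 only through day 7 control libraries and Dio2 only through day 7 libraries. The terms of these genes are therefore no support for this count. The terms were 2.51 ± 0.15 for Elovl3 (limma adjusted p = 3.9e-09), 1.04 ± 0.14 for Letmd1 (limma adjusted p = 1.6e-05) and 0.55 ± 0.15 for Pank1 (limma adjusted p = 0.0061). They were -1.88 ± 0.12 for Dio2 (limma adjusted p = 6.4e-09) and -1.09 ± 0.26 for Acot11 (limma adjusted p = 0.0031).

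The change between day 0 and day 7 was followed in each kind of cell. In control cells, which form muscle fibres over this time, 2 genes rose and 2 fell, where limma called 48.9% of all genes, 24.9% higher and 23.9% lower. The 2 that rose, Dio2 and Acot11, passed the filter only through day 7 libraries, so their rise is no support for this count. Quantile normalization moved the median of all genes in this comparison by -0.12 and turned the split to 2983 higher and 4541 lower, against 3579 and 3434 without it. Dio2 rose to 13.1 ± 0.835 FPKM at day 7 in control cells, against 0.443 ± 0.0751 at day 0 (3.28 ± 0.09; limma adjusted p = 2.0e-13). Acot11 rose to 2.84 ± 0.669 FPKM at day 7, against 0.863 ± 0.159 at day 0 (1.03 ± 0.18; limma adjusted p = 3.0e-04). Letmd1 fell to 8.26 ± 0.595 FPKM at day 7, against 15.7 ± 1.62 at day 0 (-0.85 ± 0.10; limma adjusted p = 3.7e-06), and Pank1 to 5.39 ± 0.0737, against 8.84 ± 1.27 (-0.62 ± 0.10; limma adjusted p = 1.6e-04). In NFIA cells 2 genes rose and 0 fell, where limma called 56.9% of all genes, 27.5% higher and 29.4% lower. Both, Elovl3 and Dio2, passed the filter only through day 7 libraries, so their rise is no support for this count. Elovl3 stood at 4.66 ± 0.531 FPKM at day 7 in NFIA cells, against the 0.06, 0.05 and 0.00 given above for day 0 (2.44 ± 0.11; limma adjusted p = 4.8e-11). Dio2 rose to 2.39 ± 0.372 FPKM at day 7, against 0.27 ± 0.01 at day 0 (1.41 ± 0.09; limma adjusted p = 1.7e-09). Pank1 and Acot11 overlapped between the days in NFIA cells. Letmd1 read 13.79 to 15.86 FPKM at day 7 and 12.07 to 13.73 at day 0 there, without overlap (0.19 ± 0.10; limma adjusted p = 0.11), and passed in the numbered libraries alone (0.19; limma adjusted p = 0.012) and with the header date as a term (0.19; limma adjusted p = 8.0e-04).

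**Figure D2:**
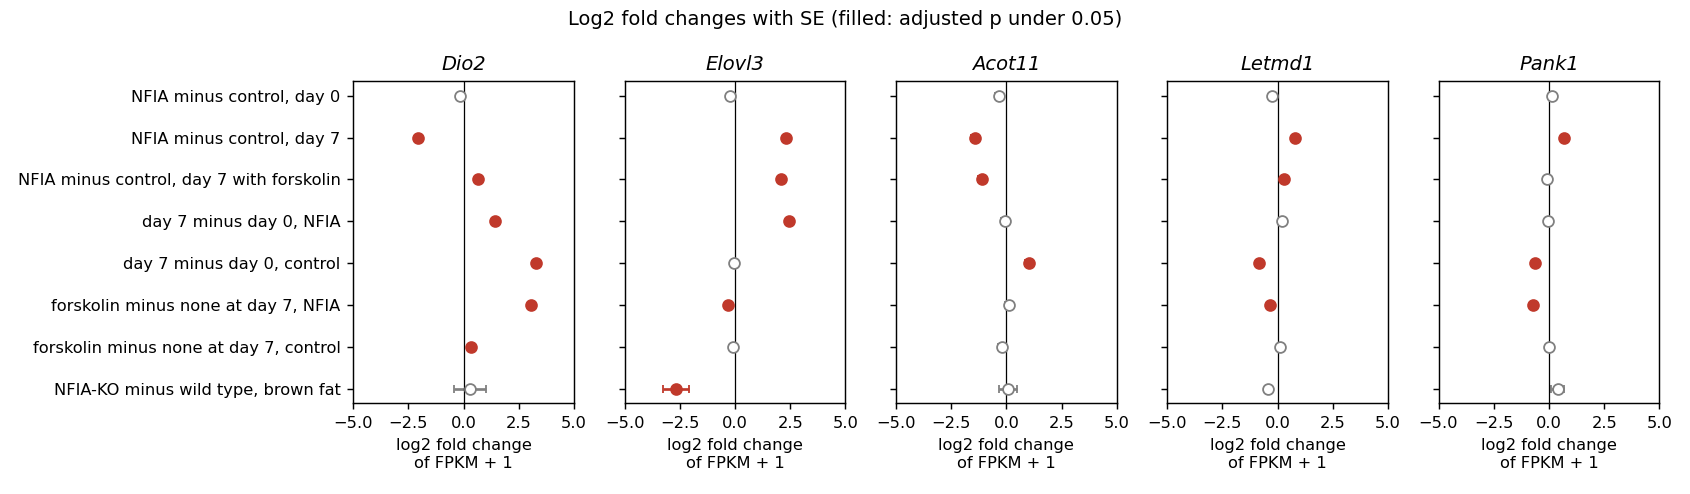
Log2 fold changes of FPKM + 1 with SE for the 5 genes in 8 comparisons; red filled points have a limma adjusted p under 0.05 and open grey points do not. Dio2 is lower in NFIA than in control cells at day 7 (-2.06) and higher with forskolin (0.63), while Elovl3 is higher in both (2.29 and 2.06).

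Forskolin moved 4 of the 5 genes in day 7 NFIA cells, 1 up and 3 down, where limma called 32.6% of all genes, 15.7% higher and 16.9% lower. Dio2 rose to 27.92, 25.04 and 27.00 FPKM in forskolin-treated NFIA cells, against 2.78, 2.34 and 2.04 in untreated ones. The mean was 11.2 times that of untreated NFIA cells, and the groups were far apart (3.03 ± 0.09; limma adjusted p = 3.3e-12). Pank1 fell to 5.01, 5.65 and 4.71 FPKM with forskolin in NFIA cells, against 10.22, 8.37 and 8.93 without, again without overlap (-0.73 ± 0.10; limma adjusted p = 6.7e-05). Letmd1 fell to 10.55, 12.22 and 11.81 FPKM with forskolin, against 13.79, 15.86 and 15.67 without (-0.36 ± 0.10; limma adjusted p = 0.0094). Elovl3 read 2.80, 4.47 and 3.56 FPKM with forskolin and 4.63, 5.20 and 4.14 without (-0.31 ± 0.11; limma adjusted p = 0.043). The Elovl3 libraries overlapped, and its call ended in the numbered libraries alone (-0.18; limma adjusted p = 0.29), without untreated NFIA replicate 1 (-0.31; limma adjusted p = 0.083) or 2 (-0.24; limma adjusted p = 0.17), and without treated NFIA replicate 1 (-0.18; limma adjusted p = 0.20) or 3 (-0.31; limma adjusted p = 0.088). It also ended with a pseudocount of 0.1 (-0.38; limma adjusted p = 0.27), with no expression filter (-0.31; limma adjusted p = 0.053), under quantile normalization (-0.20; limma adjusted p = 0.21) and in a fit of only the groups compared (-0.31; limma adjusted p = 0.19). Acot11 read 0.22, 0.82 and 0.61 FPKM with forskolin and 0.28, 0.52 and 0.43 without, and was not called. Of the 6 adipocyte markers, 1 was called higher and 4 lower with forskolin in NFIA cells, with sums of 20057 to 23263 FPKM treated and 22295 to 24466 untreated. Of the 6 brown adipocyte markers, 4 were tested, 3 were called higher and 0 lower. The 6 summed to 336.7 to 513.1 FPKM treated and 272.0 to 506.4 untreated. Most of these sums is Cox8b, which averaged 277.5 FPKM treated and 365.3 untreated and was not called. Ucp1, one of the 3, read 2.75, 3.95 and 3.06 FPKM with forskolin, against 0.01, 0.05 and 0.13 without, and passed the expression filter only through the treated NFIA libraries. Nfia itself was higher with forskolin, at 9876, 10448 and 9232 FPKM in treated NFIA cells, against 3585, 3256 and 3189 in untreated ones (1.56 ± 0.20; limma adjusted p = 2.8e-05). The part of these markers and of the Nfia level in the values of the 5 genes was not tested.

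In day 7 control cells, 1 of the 5 genes was called under forskolin, where limma called 3.97% of all genes, 1.92% higher and 2.06% lower. Dio2 read 18.14, 15.56 and 16.77 FPKM with forskolin, against 13.99, 12.36 and 12.86 without, with no overlap (0.34 ± 0.09; limma adjusted p = 0.037). This call ended without untreated control replicate 2 (0.30; limma adjusted p = 0.17) or 3 (0.33; limma adjusted p = 0.12) and without treated control replicate 1 (0.29; limma adjusted p = 0.16) or 3 (0.34; limma adjusted p = 0.10). It also ended with a pseudocount of 0.1 (0.36; limma adjusted p = 0.16), with no expression filter (0.34; limma adjusted p = 0.058), under quantile normalization (0.37; limma adjusted p = 0.12), under median-of-ratios scaling (0.34; limma adjusted p = 0.16) and in a fit of only the groups compared (0.34; limma adjusted p = 0.15). The other 4 genes overlapped between treated and untreated control cells. For 3 of the 5 genes the change with forskolin was not the same in NFIA-expressing and control cells in the interaction test, which called 20.1% of all genes, 10.5% in the positive and 9.61% in the negative direction. The term was 2.69 ± 0.12 for Dio2 (limma adjusted p = 1.5e-09), -0.74 ± 0.15 for Pank1 (limma adjusted p = 0.0020) and -0.49 ± 0.14 for Letmd1 (limma adjusted p = 0.019). The Letmd1 term missed the threshold without untreated NFIA replicate 2 (-0.46; limma adjusted p = 0.051) or treated control replicate 3 (-0.44; limma adjusted p = 0.054). Nfia had a term of 1.37 ± 0.28 in the same test (limma adjusted p = 0.0029), and in control cells it read 1.82, 1.58 and 1.32 FPKM with forskolin and 2.23, 0.81 and 0.94 without. The size of a forskolin response and the unequal Nfia level of treated and untreated NFIA cells cannot be told apart here.

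**Figure D3:**
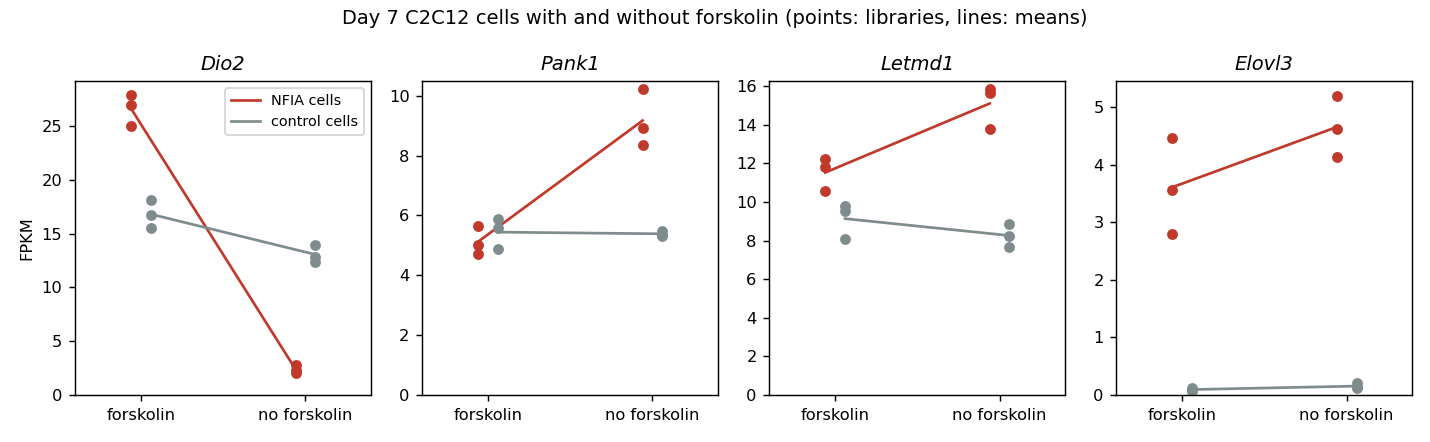
FPKM of 4 of the genes in day 7 cells with and without forskolin, NFIA cells in red and control cells in grey (points: 3 libraries each; lines: between group means). The Dio2 lines cross, since NFIA cells stand above control cells with forskolin (26.7 against 16.8 FPKM) and below them without it (2.39 against 13.1), and the Pank1 means lie close together with forskolin (5.12 against 5.44).

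Set against control cells under the same forskolin treatment, NFIA cells had 3 genes higher and 1 lower, where limma called 61.6% of all genes, 28.7% higher and 32.9% lower. Dio2 was higher, at 26.7 ± 1.47 FPKM in NFIA cells and 16.8 ± 1.29 in the controls (0.63 ± 0.09; limma adjusted p = 1.0e-05), the opposite of its direction without forskolin. Elovl3 was higher, at 3.61 ± 0.836 FPKM in NFIA cells and 0.0933 ± 0.0252 in the controls (2.06 ± 0.11; limma adjusted p = 2.8e-10). Letmd1 was higher, at 11.5 ± 0.870 FPKM in NFIA cells and 9.14 ± 0.934 in the controls (0.31 ± 0.10; limma adjusted p = 0.012), a call that ended without treated control replicate 1 (0.23; limma adjusted p = 0.065). Acot11 was lower, at 0.55 ± 0.304 FPKM in NFIA cells and 2.34 ± 0.566 in the controls (-1.12 ± 0.18; limma adjusted p = 8.7e-05). Pank1 averaged 5.12 ± 0.480 FPKM in NFIA cells and 5.44 ± 0.516 in the controls, with overlapping libraries (-0.07 ± 0.10; limma adjusted p = 0.57), and its sign turned under quantile normalization (0.10; limma adjusted p = 0.51). The treated groups share no library with the untreated ones, but each treated group also enters the comparison with its own untreated group. Under forskolin the muscle markers summed to 2076 to 4113 FPKM in NFIA cells, against 15438 to 31104 in the controls. Mylpf alone averaged 19963.5 ± 8234 FPKM in these controls. The adipocyte markers summed to 20057 to 23263 FPKM in NFIA cells, against 5.90 to 9.05, and Fabp4 alone averaged 21261 in NFIA cells. The part of these markers in the values of the genes was not tested.

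In brown fat, 1 of the 5 genes was called between libraries labelled NFIA-KO and wild type, where limma called 7.14% of 13618 genes, 3.59% higher and 3.55% lower; that count of 973 genes ran from 19 to 1361 when single libraries were left out. Elovl3 fell to 11.26, 2.77 and 1.68 FPKM in libraries labelled NFIA-KO, against 39.16, 18.21 and 39.85 in wild type. The groups did not overlap, and the mean of libraries labelled NFIA-KO was 0.162 times that of wild type (-2.66 ± 0.58; limma adjusted p = 0.044). The call ended without wild-type replicate 1 (-2.49; limma adjusted p = 0.17) or 3 (-2.48; limma adjusted p = 0.13), without NFIA-KO replicate 2 (-2.46; limma adjusted p = 0.13) or 3 (-2.22; limma adjusted p = 0.077), and with no expression filter (limma adjusted p = 0.11). Letmd1 read 181.1, 195.1 and 196.9 FPKM in libraries labelled NFIA-KO, against 297.7, 238.2 and 243.4 in wild type. These groups also did not overlap, and the difference was not called (-0.44 ± 0.12; limma adjusted p = 0.074). Pank1 read 90.4, 152.3 and 87.7 FPKM in libraries labelled NFIA-KO, against 93.7, 99.4 and 56.0 in wild type (0.40 ± 0.29; limma adjusted p = 0.40). Dio2 read 12.97, 37.12 and 15.52 FPKM in libraries labelled NFIA-KO, against 21.68, 36.70 and 4.60 in wild type (0.29 ± 0.71; limma adjusted p = 0.82), and its sign turned without wild-type replicate 3 (-0.50) or NFIA-KO replicate 2 (-0.15). Wild-type replicate 3, the library with Dio2 at 4.60 FPKM, is also the library in which the adipocyte gene Fabp4 is listed at 0. Acot11 read 2.35, 2.98 and 4.92 FPKM in libraries labelled NFIA-KO, against 6.64, 2.41 and 1.62 in wild type (0.07 ± 0.41; limma adjusted p = 0.93). Dio2, Pank1 and Acot11 overlapped between the groups.

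Skeletal muscle markers moved with the tissue label. Of 9 listed, 7 were tested, 6 were called higher and 0 lower in libraries labelled NFIA-KO, and the 9 summed to 2066, 324.6 and 1084 FPKM there, against 59.9, 61.2 and 147.2 in wild type; no marker of this list was at 0 in all libraries of either group. The library labelled NFIA-KO with the lowest muscle sum, replicate 2, had Elovl3 at 2.77 FPKM, between the other two, and how far the markers go with Elovl3 was not tested beyond the fit that follows. With the mean level of these markers as a term in the fit, the Elovl3 difference was -4.32 and was not called (limma adjusted p = 0.43), in a fit that called 1 gene in all. The brown adipocyte markers summed to 4690 to 5828 FPKM in libraries labelled NFIA-KO and 9789 to 13556 in wild type, with 0 of 6 called higher and 2 lower, Ucp1 and Cox8b. Prdm16 and Ebf2 had lower means there and were not called. Cidea had a higher mean (2791 ± 529, against 2120 ± 140, with overlap), as did Ppargc1a (38.2 ± 5.65, against 19.0 ± 8.54, without overlap). Neither was called (limma adjusted p = 0.18 and 0.080). The adipocyte markers summed to 15248, 19051 and 17543 FPKM in libraries labelled NFIA-KO, against 26048, 23262 and 3019 in wild type. The low wild-type sum is that of replicate 3, where Fabp4, a fatty acid carrier, is listed at 0, against 23064 and 21230 FPKM in the other wild-type libraries, and an exact 0 in such a table can be a failed estimate. Adipoq, another marker of the list, read 858.7 FPKM in that library and 894.3 and 842.5 in the others. Adipocyte, immune, endothelial, erythroid, smooth muscle and progenitor lists had 0 genes called by limma. At an unadjusted p under 0.05 there were 3 of 5 tested smooth muscle genes and 2 of 4 progenitor genes, where 28.9% of all genes had such a p. The adipocyte list had 1 of 6 such genes, the immune and endothelial lists 1 of 4 each and the erythroid list 0 of 4. Nerve and epidermis lists had 1 gene lower each. Muscle content and the label cannot be told apart with 3 libraries a group.

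**Figure D4:**
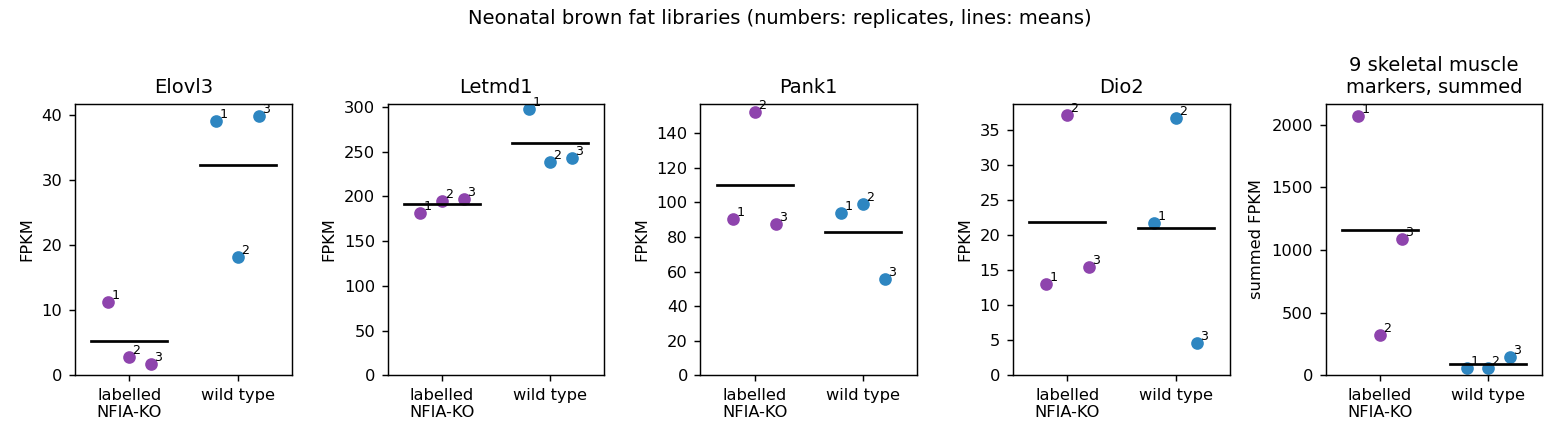
FPKM of 4 of the genes and the summed FPKM of 9 skeletal muscle markers in the 6 brown fat libraries, with replicate numbers beside the points and lines at group means. Elovl3 and Letmd1 libraries do not overlap between labels, Pank1 and Dio2 do, and the muscle sum runs from 324.6 to 2066 in libraries labelled NFIA-KO, against 59.9 to 147.2 in wild type.

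The wider pathways around each gene were followed with 5 lists. Coenzyme A synthesis, the pathway that Pank1 starts, had 6 of 7 genes higher and 0 lower in NFIA cells at day 7 (median 1.21), where 26.1% of all genes were called higher, 29.4% lower, and the median of all genes was -0.03. Pank3, a paralog of Pank1, was higher, at 94.2 ± 22.3 FPKM in NFIA cells, against 16.6 ± 2.24 in the controls (2.42 ± 0.22; limma adjusted p = 1.6e-07). Coasy, which makes coenzyme A from phosphopantetheine, was higher by 1.65 ± 0.18. Ppcs, which joins phosphopantothenate to cysteine, was higher by 1.34 ± 0.17, and Slc5a6, a transporter that carries pantothenate into cells, by 1.21 ± 0.13. The paralog Pank2 was higher by 1.14 ± 0.09, while Pank4 averaged 11.6 ± 1.76 FPKM in NFIA cells and 10.4 ± 1.41 in the controls and was not called (limma adjusted p = 0.46). Forskolin lowered 5 of these 7 genes in NFIA cells and raised 0 (median -0.44), where 15.7% of all genes were called higher, 16.9% lower, and the median of all genes was -0.02. The levels fell by 0.96 ± 0.13 for Slc5a6, by 0.71 ± 0.17 for Ppcs, by 0.62 ± 0.18 for Coasy, by 0.44 ± 0.12 for Ppcdc, which decarboxylates phosphopantothenoylcysteine, and by 0.42 ± 0.09 for Pank2 on the log2 scale. In control cells limma called 0 of the 7 under forskolin, with 1 at an unadjusted p under 0.05. Of all genes there, 3.97% were called and 12.3% had such a p. Set against control cells under the same forskolin treatment, NFIA cells had 4 of the 7 higher and 0 lower (median 0.44). There 28.7% of all genes were called higher, 32.9% lower, and the median of all genes was -0.04. The untreated day 7 NFIA libraries enter both the day 7 comparison with control cells and the forskolin comparison, so these results are not independent.

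The thyroid hormone list, around Dio2, had 6 of 10 tested genes higher and 2 lower in NFIA cells at day 7 (median 0.50), against the same 26.1% higher and 29.4% lower of all genes. Thrsp, a thyroid hormone-responsive gene of lipogenic tissue, averaged 14.8 ± 2.85 FPKM in NFIA cells and 0.01 in the controls. It is one of the 6, but passed the filter only through the day 7 NFIA libraries and so had to differ. Hr, a nuclear receptor corepressor induced by thyroid hormone, was higher by 1.61 ± 0.11 in NFIA cells and Klf9, a Krüppel-like factor, by 1.17 ± 0.08. With forskolin added to NFIA cells, 4 of 10 rose and 4 fell (median -0.19), where 15.7% of all genes rose and 16.9% fell. Wsb1, which targets the deiodinase for ubiquitination, rose to 105.3 ± 10.7 FPKM with forskolin in NFIA cells, against 35.9 ± 1.80 without (1.52 ± 0.10; limma adjusted p = 3.1e-08). Hr rose by 0.60 ± 0.11, and Usp20, which removes ubiquitin from the deiodinase, fell by 0.78 ± 0.16 and Thrsp fell by 0.62 ± 0.11 on the log2 scale. Hr also rose in control cells under forskolin (0.49 ± 0.11; limma adjusted p = 0.02), the 1 gene of the list called there. Dio1 and Dio3, which encode the other deiodinases, did not pass the filter in cells or in tissue.

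Fatty acid elongation, the pathway of Elovl3, had 6 of 10 tested genes higher and 0 lower in NFIA cells at day 0 (median 0.39), where 12.1% of all genes were called higher, 9.07% lower, and the median of all genes was 0.02. Elovl4, Elovl5 and Elovl6, elongases with other substrates, were higher by 0.61 ± 0.11, 0.55 ± 0.07 and 0.53 ± 0.10. At day 7, 6 were higher and 2 lower (median 0.74), where 26.1% and 29.4% of all genes were. The dehydratase gene listed as Ptplb was higher, at 88.4 ± 3.49 FPKM in NFIA cells, against 2.86 ± 0.37 in the controls (4.54 ± 0.11; limma adjusted p = 5.0e-14). Elovl4 was higher in NFIA cells by 3.05 ± 0.11, the ketoreductase gene Hsd17b12 by 1.69 ± 0.13 and Elovl6 by 1.18 ± 0.10. The dehydratase gene listed as Ptplad2 was lower by 2.75 ± 0.13 on the log2 scale. Forskolin raised Elovl4 by 1.22 ± 0.11 and Elovl5 by 0.28 ± 0.07 in NFIA cells, the 2 of 10 that were called, where 32.6% of all genes were.

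Among acyl-CoA thioesterases, the family of Acot11, 5 of 10 tested were higher and 4 lower in NFIA cells at day 7 (median 0.17), beside 26.1% and 29.4% of all genes. Acot5 passed the filter only through NFIA libraries and Acot6 only through control libraries. Acot7, which hydrolyses long-chain acyl-CoA, was lower in NFIA cells by 1.12 ± 0.18 and the mitochondrial Acot9 by 0.69 ± 0.07 on the log2 scale. Acot2 is a mitochondrial member whose near-identical copy Acot1 can share its reads. At day 0 Acot2 was higher, at 6.88 ± 0.768 FPKM in NFIA cells, against 1.82 ± 0.0252 in the controls (1.48 ± 0.09; limma adjusted p = 1.3e-08). The list of the LETM1 family and mitochondrial cation exchange, around Letmd1, had 3 of 6 higher and 3 lower at day 7 (median 0.30), beside the same shares of all genes. Letm1, the inner-membrane cation exchanger that gives the family its name, was higher in NFIA cells by 1.54 ± 0.17. Letm2 was lower by 0.21 ± 0.07, the calcium uniporter gene, listed as Ccdc109a, by 1.49 ± 0.09, and the gene of its regulator, listed as Cbara1, by 0.98 ± 0.18 on the log2 scale.

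**Figure D5:**
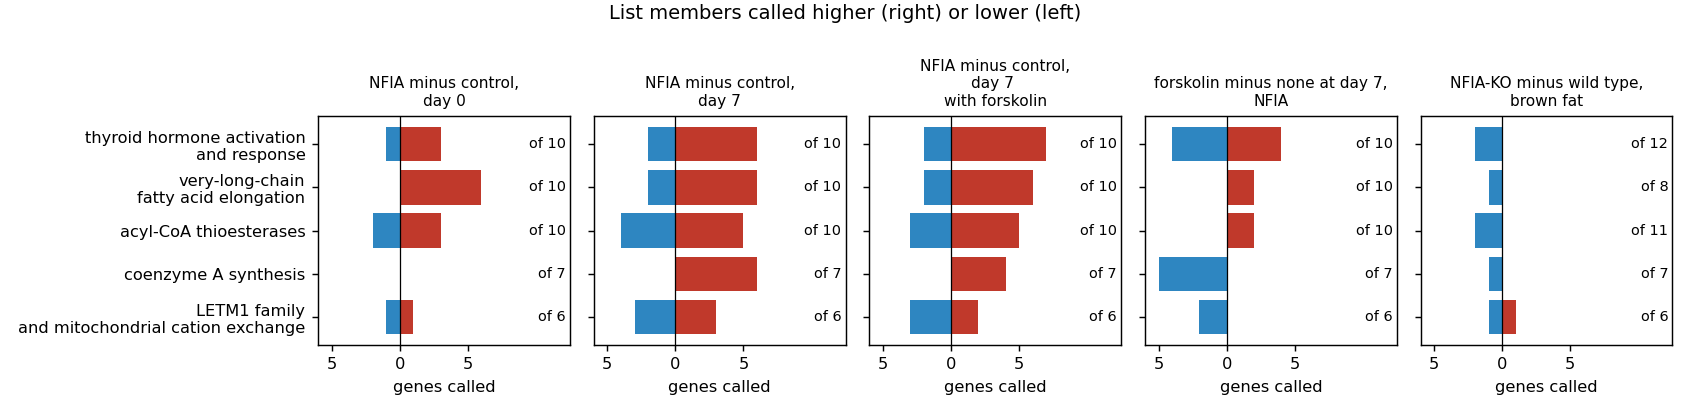
Number of genes of each list called higher (red, right) or lower (blue, left) in 5 comparisons at a limma adjusted p under 0.05, with the number tested at the right of each bar. Coenzyme A synthesis has 6 of 7 higher in NFIA than in control cells at day 7, and 4 of 7 higher where both had forskolin. It has 5 of 7 lower when forskolin was added to NFIA cells.

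In brown fat labelled NFIA-KO, the lists are set beside all tested genes, of which limma called 3.59% higher and 3.55% lower. That count ran from 19 to 1361 genes with single libraries left out. Coenzyme A synthesis had 0 of 7 higher and 1 lower, Coasy, which fell by 0.64 ± 0.14 on the log2 scale (limma adjusted p = 0.043). Elongation had 0 of 8 higher and 1 lower, Hsd17b12, at 99.4 ± 9.85 FPKM in libraries labelled NFIA-KO and 206.6 ± 25.4 in wild type (-1.05 ± 0.13; limma adjusted p = 0.018). The thyroid hormone list had 0 of 12 higher and 2 lower, the deubiquitinase gene Usp33 (-1.09 ± 0.15) and the transporter gene Slc16a10 (-1.14 ± 0.18). Thioesterases had 0 of 11 higher and 2 lower, Acot10 (-0.62 ± 0.11) and Acot9 (-0.53 ± 0.11), which are close in sequence and can share reads. Letm1 fell to 30.3 ± 7.27 FPKM in libraries labelled NFIA-KO, against 60.3 ± 8.68 in wild type (-0.99 ± 0.20; limma adjusted p = 0.041), and Letm2 rose to 4.71 ± 1.01, against 1.44 ± 0.513 (1.23 ± 0.21; limma adjusted p = 0.029). The LETM1 list had 1 of 6 genes higher and 1 lower. At an unadjusted p under 0.05 in limma there were 5 of 6 genes of the LETM1 list and 4 of 12 thyroid hormone genes. Such a p was also found for 4 of 11 thioesterases, 2 of 8 elongation genes and 2 of 7 coenzyme A genes. Of all genes, 28.9% had such a p. The muscle markers given above moved with the same label.

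Over the 18 C2C12 libraries, which fall into 6 groups and are not independent points, the 5 genes did not share a pattern. Their Pearson correlations of log2(FPKM + 1) ran from -0.920 between Dio2 and Pank1 to 0.718 between Letmd1 and Pank1. The genes most like Dio2 were Bhlhe40 (r = 0.983), a repressor of the circadian clock, Dlgap4 (0.975) and Gem (0.970), a small GTP-binding protein. Those most like Elovl3 were Cs (0.995), which encodes citrate synthase, the keratin gene Krt79 (0.995) and the glycosyltransferase gene Mfng (0.995). Acot11 was most like Ubash3b (0.953), Cd28 (0.947) and Sncg (0.946), where Cd28 averaged 0.527 and Sncg 0.528 FPKM. Letmd1 was most like Ints5 (0.955), Flywch1 (0.947) and Chd1l (0.938), and Pank1 most like Slc35b4 (0.945), Gmcl1 (0.939) and Msh6 (0.937). With differences between groups this large, many genes reach such values.

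Overlapping genes limit what a value can be assigned to, since the kit marks strand but whether the counting used it is not stated. The listed locus of Elovl3 overlaps Pitx3, on the opposite strand in GENCODE M21, which read 0.59, 1.01 and 3.09 FPKM in day 7 NFIA cells and 2.12, 2.85 and 2.74 in day 7 control cells. At day 0 Pitx3 read 0.04, 0.38 and 1.06 FPKM in NFIA cells and 0.19, 2.24 and 2.09 in control cells. In brown fat it read 0.52, 0.19 and 0.24 FPKM in libraries labelled NFIA-KO, against 1.67, 1.2 and 0.66 in wild type, without overlap and in the direction of Elovl3, and its part in the Elovl3 values was not tested. The listed locus of Dio2 overlaps Gm16738, which read 1.60, 1.01 and 0.99 FPKM in forskolin-treated NFIA cells and 0.06, 0.06 and 0.05 in untreated ones, the direction of Dio2 at a lower level. Acot11 overlaps Fam151a and Gm12745, which did not pass 0.04 FPKM in any library, and Pank1 contains Mir107, which was listed at 0 in every library.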

How the data were processed

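Poly(A) RNA of C2C12 cells and neonatal brown fat was sequenced from stranded TruSeq libraries, per the labels' protocols. The authors deposited FPKM in 1 table for each library; the submitters' processing notes name TopHat, Cufflinks and the build mm9, with versions and annotation not given in the sources used here. Each table lists 37305 entries, and 264 were summed into another of the same symbol at an overlapping locus. Listed starts count from 0, and 1 was added.

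FPKM were tested as log2(FPKM + 1) in limma 3.58.1 (R 4.3.3) with a variance trend, in a fit of 18 C2C12 libraries and another of 6 tissue libraries, over genes with at least 1 FPKM in at least 3 libraries. Benjamini-Hochberg adjustment ran over all genes tested in a comparison, with calls at 0.05. Interaction terms tested differences between effects. The procedure was run on simulated data with independent noise, to check the estimates of known shifts. That run does not give the error rate in these libraries, where same-numbered libraries can correlate. Replicates correlated at 0.975 to 0.993 and shared at most 0.5% identical values, so none was merged. The 5 genes, the lists and the rules were chosen with earlier results of these data known. Per comparison, the rule for named genes allowed the 5 genes, up to 4 called members of a list with the largest change and no overlap between groups, and close paralogs; for likeness, it allowed the 3 genes with the highest r. Pitx3, Gm16738 and the other overlapping genes were named for their position. Column headers hold a date, earlier for unnumbered C2C12 and all tissue libraries and later for numbered C2C12 libraries; only 1 C2C12 library a group has the earlier date, so it gives no test of its own. Alternatives were a pseudocount of 0.1, no filter, quantile and median-of-ratios scaling, no variance trend, only the groups compared, a replicate block, numbered libraries only, a muscle marker term in tissue, zeros as missing where the group reached 100 FPKM, and each library left out; the header date as a term was chosen after seeing the data. A left-out library leaves 2 in its group.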

Additional observations from a re-analysis of the deposited data

Results flagged for a closer look

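The NFIA effect differed between day 7 and day 0 in the interaction test for all 5 genes, by 2.51 for Elovl3, 1.04 for Letmd1, 0.55 for Pank1, -1.88 for Dio2 and -1.09 for Acot11 on the log2 scale, where limma called 45.3% of all genes. Elovl3, Dio2 and Acot11 passed the expression filter in cells only through day 7 libraries, so their terms are no support for this count. The response to forskolin differed between NFIA-expressing and control cells for Dio2 (2.69), Pank1 (-0.74) and Letmd1 (-0.49), where limma called 20.1% of all genes.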

How the results depend on the processing

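Counting every member and comparison, 453 values kept their direction and side of the threshold under the settings that keep all libraries or drop a set of them, against 16 that gained a call, 12 that lost it and 2 that changed sign; with single libraries left out, 333 kept both, 1 gained, 15 lost a call and 11 changed sign. The cause was not tested. Several settings that keep all libraries or drop a set leave the fold changes of the 5 genes as they are, so direction could not change. They are no filter, no variance trend, the replicate block, the header date as a term, only the groups compared and zeros as missing. None of the 5 genes had a 0 in a group that reached 100 FPKM, so the last setting changed none of their values. With a pseudocount of 0.1, day 0 differences were called for Dio2 (-0.55) and Elovl3 (-1.17), the forskolin calls of Dio2 in control cells (0.36) and of Elovl3 in NFIA cells (-0.38) were lost, and the Elovl3 forskolin interaction turned to 0.0082. With no expression filter, Dio2 in control cells (0.34) and Elovl3 in NFIA cells (-0.31) under forskolin and Elovl3 in tissue (-2.66) lost their calls, and 40 tissue genes were called. Quantile normalization called Elovl3 (-0.37) and Letmd1 (-0.28) at day 0, Elovl3 over time in control cells (-0.39) and Letmd1 over time in NFIA cells (0.22), lost Dio2 (0.37) and Elovl3 (-0.20) under forskolin, and turned Pank1 between treated NFIA and control cells to 0.10. Median-of-ratios scaling called Letmd1 at day 0 (-0.27) and over time in NFIA cells (0.24) and lost Dio2 under forskolin in control cells (0.34).

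No label ties libraries by replicate number, and the numbers were not treated as pairs: of 45 same-numbered C2C12 pairs, 36 correlated over 0.1 (-0.036 to 0.444, against -0.374 to 0.229 for different numbers), and of 3 tissue pairs, 2 did. Replicate 1 of every C2C12 group does share the earlier header date. The replicate block called Dio2 (-0.18) and Letmd1 (-0.24) at day 0 and Letmd1 over time in NFIA cells (0.19), with 5159 genes called at day 0, 1260 under forskolin in control cells and 5041 in the forskolin interaction. The header date as a term, chosen after seeing the data, gave the same 3 values (-0.18, -0.24 and 0.19) as calls and 5303, 1343 and 5149 genes. The numbered libraries alone called Letmd1 at day 0 (-0.27) and over time in NFIA cells (0.19), lost Elovl3 under forskolin (-0.18), and called 4556 genes in the forskolin interaction. With only the groups compared, 1872 genes were called at day 0 and 239 under forskolin in control cells, and Dio2 (0.34) and Elovl3 (-0.31) lost their forskolin calls. The muscle term left 1 tissue gene called and Elovl3 at -4.32.

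With single libraries left out, tissue calls ran from 19 to 1361 and forskolin calls in control cells from 361 to 447. In tissue, Elovl3 ran from -3.31 to -2.22, Dio2 from -0.50 to 0.87 and Acot11 from -0.25 to 0.52. Under forskolin, Dio2 in control cells ran from 0.29 to 0.39, Elovl3 in NFIA cells from -0.44 to -0.18, Acot11 in NFIA cells from -0.0051 to 0.28 and Pank1 in control cells from -0.038 to 0.075. Over time in NFIA cells, Acot11 ran from -0.18 to 0.13 and Pank1 from -0.14 to 0.0017. Letmd1 ran from -0.32 to -0.18 at day 0, from 0.23 to 0.36 between treated NFIA and control cells, and from -0.57 to -0.43 in the forskolin interaction. Depth is unknown, which limits the values near 0 of Elovl3, Dio2 and Acot11.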

Other observations

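Pathway genes also changed with time in culture. In control cells, the nuclear thyroid hormone receptor gene Thra rose to 46.1 ± 1.41 FPKM at day 7, against 20.6 ± 2.67 at day 0 (1.13 ± 0.09; limma adjusted p = 1.1e-07), and Klf9 rose by 1.37 ± 0.08. The elongase gene Elovl6 fell by 1.73 ± 0.10 on the log2 scale, and the dehydratase gene listed as Ptpla rose by 1.87 ± 0.22. Thyroid hormone genes had 5 of 10 higher and 2 lower, elongation genes 3 of 10 higher and 6 lower, and coenzyme A synthesis 0 of 7 higher and 2 lower, where 24.9% of all genes were called higher and 23.9% lower by limma.

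In NFIA cells over the same days, coenzyme A synthesis had 6 of 7 higher and 0 lower, where 27.5% of all genes were called higher and 29.4% lower. Pank3 rose by 2.07 ± 0.22, Coasy by 1.56 ± 0.18 and Slc5a6 by 1.51 ± 0.13. Pank1 itself averaged 9.17 ± 0.949 FPKM at day 7 and 9.64 ± 0.903 at day 0 in NFIA cells and was not called. The same untreated day 7 NFIA libraries enter this comparison, the day 7 comparison with control cells and the forskolin comparison. Results of these comparisons are not independent of one another.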
